A study of Mus musculus with 16 samples.

Results

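Among the wells sorted as single proprioceptive sensory neurons from mouse dorsal root ganglia at embryonic day 15.5 (e15.5), 352 of 960 held connective tissue cells rather than neurons. Each well is one sorted cell, read by CEL-Seq2, a single-cell RNA sequencing method that tags each captured mRNA at its 3′ end with a unique molecular identifier (UMI), so that UMIs count molecules. A well was taken as a connective tissue cell when it held at least 10000 UMIs, under 10% of them from mitochondrial genes, at least 2000 CPM (counts scaled to 1000000 UMIs in total) of the collagen I genes *Col1a1* and *Col1a2* together, and under 100 CPM of the sensory neuron genes *Avil* and *Isl1* together. These wells were summed within each library of 96 wells, and libraries 6, 7 and 8 were compared with libraries 1 to 5. The members were thus chosen by measured values of these 4 genes, and the split was chosen by *Hoxc10* in the proprioceptor wells of the same libraries, which stood at 46.4, 3.66, 41.4, 3.05 and 16.9 CPM in libraries 1 to 5 and at 125, 145 and 139 CPM in libraries 6 to 8. No axial level is given in the sample labels, so the level of a library was inferred from these neurons. Libraries 9 and 10, whose proprioceptors were also rich in *Hoxc10* with 116 and 145 CPM, held only 3 and 5 connective tissue wells and entered no test.

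All 10 libraries came from the PvtdTom mouse line, in which a bacterial artificial chromosome drives the red fluorescent protein tdTomato from the parvalbumin promoter, and cells positive for tdTomato were isolated by fluorescence-activated sorting after enzymatic digestion of the ganglia. The study dissected thoracic and lumbar ganglia separately, without treatment or mutation in the libraries used here. The labels do not say whether libraries came from separate embryos or litters, so each p-value measures the spread between libraries, which may be technical, and a difference in dissection or library preparation cannot be told apart from the split. A well here is called a proprioceptor when it passed the same limits on depth and mitochondrial share, held at least 100 CPM of *Avil* and *Isl1* and under 2000 CPM of collagen I, and had a UMI of each of *Pvalb*, *Runx3*, *Etv1* and *Ntrk3*.

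Hox genes lie in the clusters Hoxa, Hoxb, Hoxc and Hoxd, and encode transcription factors whose order along each cluster matches the order of body levels at which they are switched on, so that genes of low paralogue number act further forward and genes of high number further back. Mesoderm keeps such a code as well as the nervous system, and the somites and lateral plate give rise to the connective tissue, cartilage, bone, tendon and muscle of the trunk and limbs. Paralogue groups 10 and above are known for patterning the lumbar, sacral and tail vertebrae and the limb skeleton.

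The connective tissue wells numbered 30, 55, 37, 38 and 19 in libraries 1 to 5 and 71, 53 and 41 in libraries 6 to 8, which gives 179 and 165 wells. They held 11483 to 127540 UMIs with a median of 28498, a median of 6582 detected genes and a median mitochondrial share of 4.85%. Collagen I ranged from 2153 to 77071 CPM with a median of 21785, and the sum of *Avil* and *Isl1* had a median of 14.5 CPM. The nearest wells inside and outside the limits had 2153 and 1883 CPM of collagen I, 92.6 and 101 CPM of *Avil* and *Isl1*, 11483 and 8223 UMIs, and mitochondrial shares of 9.98% and 10.2%.

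The name of the wells was checked against markers. All 20 connective tissue markers examined had a UMI in the majority of the 344 wells of libraries 1 to 8. *Col1a1* and *Col1a2* were included, and among the others were *Col3a1*, *Dcn*, *Pdgfra*, *Fbn1* and *Twist1*. The 20 summed to 50474 to 59555 CPM in libraries 1 to 5 and to 37208 to 40040 CPM in libraries 6 to 8. Proprioceptor wells held 998 CPM. The largest parts of the sum were the rule genes *Col1a1* and *Col1a2*, at 10362 and 15108 CPM over the 344 wells. Each marker outside the rule was also higher than in proprioceptor wells, such as *Col3a1* at 6128 against 42.0 CPM and *Dcn* at 457 against 2.28 CPM. The labels name the tissue as proprioceptive sensory neurons, but the 4 proprioceptor markers summed to between 113 and 275 CPM in the connective tissue wells and to 4409 CPM in proprioceptor wells. *Pvalb*, whose promoter drives the sorted fluorescence, stood at 10.9 CPM, with a UMI in 27.0% of the wells, and at 465 CPM in proprioceptor wells. The 8 sensory neuron markers include both neuronal genes of the rule. They summed to 381 to 1157 CPM in libraries 1 to 5 and 583 to 796 CPM in libraries 6 to 8. Proprioceptor wells held 21361 CPM. Those wells were chosen by low collagen I, by *Avil* and *Isl1*, and by the 4 proprioceptor markers. The contrasts in these sums were thus partly set by the choice of wells. Library depth lay between 3701900 and 9299431 UMIs, and median depth of the wells did not separate the sets, at a mean of 29234 UMIs in libraries 1 to 5 and 27667 UMIs in libraries 6 to 8 (exact two-sided permutation test, p = 0.5).

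In the Hoxa cluster *Hoxa7* was lower, and *Hoxa9* and *Hoxa10* were higher, in libraries 6 to 8, and in the Hoxc cluster *Hoxc8* was lower and *Hoxc9* higher. The Hoxa genes are shown since *Hoxa10* had the largest positive and *Hoxa7* the largest negative difference of the Hox genes tested. The 250 bases ahead of their start sites are printed 5′ to 3′ from the RefSeq promoter table (GRCm38.p6, minus strand of chromosome 6, where each region is at chr6:52218574-52218823, chr6:52227371-52227620, chr6:52240855-52241104 and chr6:52234940-52235189, in the order of the lines), with every TTTATG in capitals, a core recognised by the caudal (CDX) homeodomain proteins that act on Hox clusters in the posterior embryo.
Hoxa7: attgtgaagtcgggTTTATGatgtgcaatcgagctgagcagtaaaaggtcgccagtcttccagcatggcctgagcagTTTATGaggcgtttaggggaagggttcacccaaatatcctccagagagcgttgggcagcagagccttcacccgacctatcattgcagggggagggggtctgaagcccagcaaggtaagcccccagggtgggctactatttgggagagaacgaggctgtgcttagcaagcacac
Hoxa9: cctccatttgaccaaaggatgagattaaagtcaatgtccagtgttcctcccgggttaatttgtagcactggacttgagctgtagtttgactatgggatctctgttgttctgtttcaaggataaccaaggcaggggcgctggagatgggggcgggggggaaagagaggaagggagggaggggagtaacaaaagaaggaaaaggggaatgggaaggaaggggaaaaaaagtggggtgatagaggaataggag
Hoxa10, outer start: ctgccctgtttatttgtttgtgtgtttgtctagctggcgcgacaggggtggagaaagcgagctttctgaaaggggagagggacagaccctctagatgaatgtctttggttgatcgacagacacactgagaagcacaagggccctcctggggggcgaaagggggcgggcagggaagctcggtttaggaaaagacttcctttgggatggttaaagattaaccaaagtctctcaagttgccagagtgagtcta
Hoxa10, inner start: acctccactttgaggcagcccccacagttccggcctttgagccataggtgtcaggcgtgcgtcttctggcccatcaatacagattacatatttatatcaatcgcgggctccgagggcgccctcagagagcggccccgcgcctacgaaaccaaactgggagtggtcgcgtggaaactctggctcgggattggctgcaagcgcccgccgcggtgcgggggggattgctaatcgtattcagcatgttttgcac
The *Hoxa7* window held 2 matches and the other 3 windows held 0, on either strand, where 10.8% of the 32851 promoters of the table held at least 1. TGACAG, a core recognised by MEIS proteins, was in 0 of the 4 windows and in 15.9% of all promoters. The windows held 7, 3, 7 and 20 CpG dinucleotides, against a median of 6. A match describes letters and not a bound site, and no binding was measured.

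Connective tissue cells of libraries 6 to 8 held more transcripts of Hox groups 9 and 10 and fewer of several genes of groups 3 to 8 than those of libraries 1 to 5. Of 39 Hox genes, 21 had enough UMIs to be tested, 12 had UMIs but too few, and 6 had none. Of the 21, 4 were higher in libraries 6 to 8 (*Hoxa9*, *Hoxc9*, *Hoxa10* and *Hoxc10*) and 5 were lower (*Hoxb3*, *Hoxb6*, *Hoxa7*, *Hoxb7* and *Hoxc8*) at an adjusted p below 0.05, where 5.61% of the 11185 genes tested passed in either direction, 3% higher and 2.6% lower (edgeR quasi-likelihood test on UMIs summed per library, Benjamini-Hochberg adjustment over all genes tested). *Hoxc10* chose the split in other wells of the same libraries, so its values are a description with no test. It adds no support to the counts of Hox genes, here and below, that hold it. The CPM of libraries 6 to 8 did not overlap those of libraries 1 to 5 for 10 of the 21 Hox genes, *Hoxc10* among them, against 14.7% of all genes tested. The 5 lower calls became 3 without library 1 and 2 without any one of libraries 6, 7 and 8. *Hoxb7* missed the threshold whichever library was left out, *Hoxb6* without library 1, 2, 6, 7 or 8, *Hoxb3* without library 6, 7 or 8, and *Hoxa9* without library 7. In the following, differences are on the log2 scale, libraries 6 to 8 minus libraries 1 to 5.

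*Hoxa10* (ENSMUSG00000000938, chr6:52231197-52240854, minus strand, GRCm38), which acts in lumbar vertebrae and hindlimb, was nearly silent in the connective tissue of libraries 1 to 5. It stood at 0, 0.528, 0.892, 0 and 0 CPM in libraries 1 to 5 and at 57.7, 63.4 and 67.3 CPM in libraries 6 to 8. The 3 libraries of the second set lay far above the first set, and the sets did not overlap. This came from 2 UMIs against 303 UMIs, a ratio of 174 per UMI sequenced (exact 95% interval 47.8 to 1444, counting error only), and the fitted difference was 7.07 ± 0.39 (SE, 5 and 3 libraries), with an adjusted p of 7.66e-06 by the edgeR quasi-likelihood test. *Hoxc10* (ENSMUSG00000022484, chr15:102966796-102971893, plus strand, GRCm38), its paralogue in the Hoxc cluster, stood at 9.24, 11.1, 9.81, 16.1 and 2.04 CPM and at 155, 193 and 207 CPM, so every library of the second set was above every library of the first, as in the neurons that set the split. The log2 difference of *Hoxc10* was 4.04 ± 0.27.

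The other genes of groups 10 to 13 had too few UMIs for the fit or none. *Hoxd10* had 0 UMIs in libraries 1 to 5 and 34 UMIs in libraries 6 to 8, at least 13.03-fold higher when 3 UMIs over the first set are taken as its floor, which is 0.530 CPM. *Hoxa11* had 0 and 17 UMIs (at least 6.51-fold higher) and *Hoxd11* had 0 and 5 UMIs (at least 1.92-fold higher). Summed over the 12 genes of groups 10 to 13, the level was 9.95 CPM on average in libraries 1 to 5 and 261 CPM in libraries 6 to 8, a sum that holds *Hoxc10*.

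Group 9 genes were present in both sets, and 2 of the 3 tested were called higher in libraries 6 to 8. *Hoxc9* stood at 52.4, 33.8, 26.8, 23.8 and 28.5 CPM in libraries 1 to 5 and at 77.0, 83.0 and 105 CPM in libraries 6 to 8. *Hoxa9* stood at 19.5, 19.01, 21.4, 28.0 and 16.3 CPM and at 41.1, 67.3 and 57.9 CPM. For both genes the sets were apart, with differences of 1.34 ± 0.23 for *Hoxc9* (edgeR adjusted p = 0.00672) and 1.30 ± 0.23 for *Hoxa9* (edgeR adjusted p = 0.00806). *Hoxb9* stood at 56.5, 30.6, 23.2, 28.9 and 24.5 CPM and at 62.0, 50.3 and 44.6 CPM, with library 1 inside the range of libraries 6 to 8, and did not pass (log2 difference 0.61 ± 0.26, edgeR adjusted p = 0.217). *Hoxd9*, not tested by the fit, had 2 UMIs in libraries 1 to 5 and 80 UMIs in libraries 6 to 8, a ratio of 46.0 per UMI sequenced (exact 95% interval 12.3 to 386, counting error only).

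Groups 5 to 8, which act in the trunk, held 4 of the 5 lower calls, from 10 tested genes of which 0 were called higher, with a median difference of -1.09, beside -0.02 over all genes tested. The largest drop was in *Hoxa7* (ENSMUSG00000038236, chr6:52214491-52221854, minus strand, GRCm38), at 184, 182, 109, 177 and 302 CPM in libraries 1 to 5 and 21.8, 27.4 and 26.6 CPM in libraries 6 to 8. Its sets were far apart and the difference was -2.97 ± 0.29 (edgeR adjusted p = 0.000389). *Hoxc8* stood at 165, 192, 155, 125 and 224 CPM and at 54.3, 66.6 and 92.0 CPM, again with no overlap, and its difference was -1.35 ± 0.22 (edgeR adjusted p = 0.00526). The neighbours *Hoxb6* and *Hoxb7* were lower as well, with differences of -1.03 ± 0.24 (adjusted p = 0.0312) and -1.15 ± 0.30 (adjusted p = 0.0472) by the same edgeR test. *Hoxb8* stood at 25.7, 14.8, 3.57, 16.1 and 32.6 CPM and at 3.42, 7.19 and 0 CPM and missed the threshold with a log2 difference of -2.23 ± 0.69 (edgeR adjusted p = 0.0912). *Hoxc6* had the smallest difference of the 21 tested Hox genes, at 87.3, 121, 102, 74.7 and 93.7 CPM and 94.96, 81.0 and 94.8 CPM (log2 difference -0.16 ± 0.17). *Hoxa5*, *Hoxb5*, *Hoxc5* and *Hoxd8* did not pass, with differences between -1.34 and -0.40.

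Groups 1 to 4, which act in the hindbrain and neck, were represented by 6 tested genes, of which *Hoxb3* was called lower and 0 higher, with a median difference of -0.79. *Hoxb3* stood at 49.3, 43.8, 44.6, 42.4 and 59.1 CPM in libraries 1 to 5 and at 32.5, 24.8 and 26.6 CPM in libraries 6 to 8, with a difference of -0.81 ± 0.18 (edgeR adjusted p = 0.0257). The sets did not overlap. *Hoxa2*, *Hoxb2*, *Hoxa3*, *Hoxb4* and *Hoxc4* did not pass, with differences between -0.84 and -0.73. Of the 39 Hox genes, 15 overlap another annotated gene on the same strand and 14 on the other strand, and UMIs of such shared stretches cannot be told apart here.

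**Figure D1:**
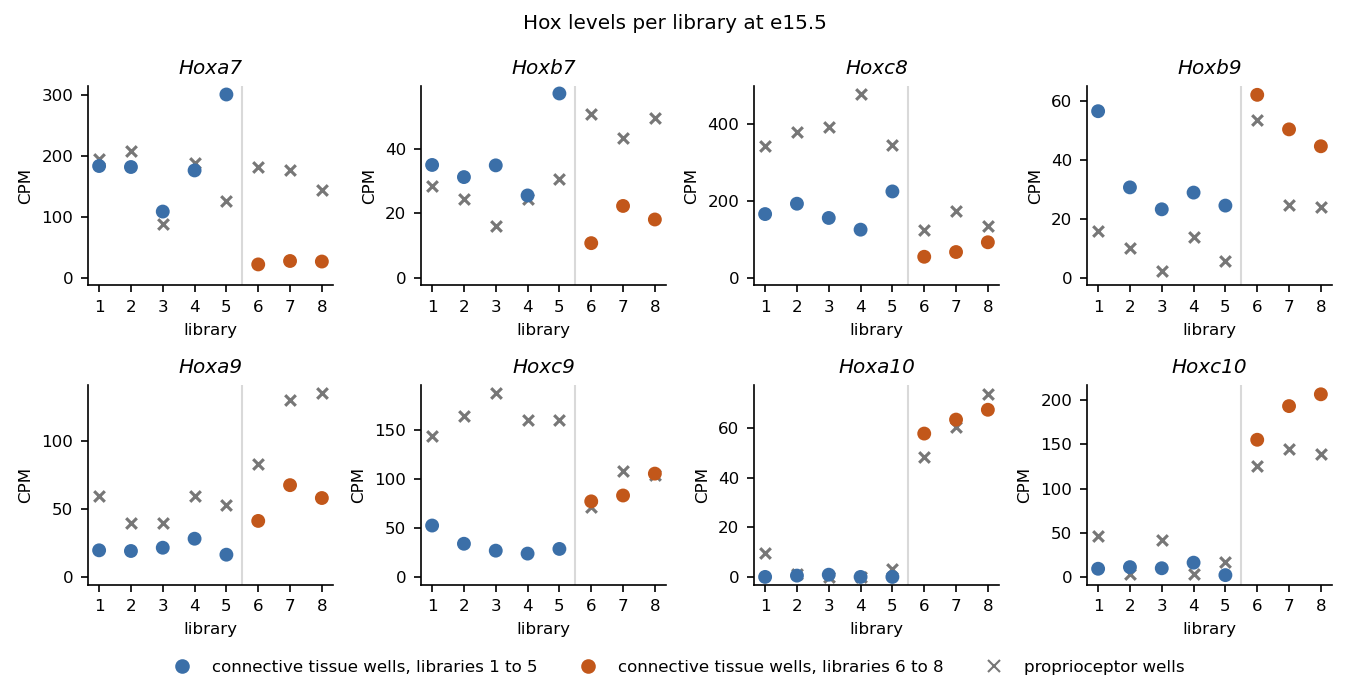
Level of 8 Hox genes (CPM) in each library, with connective tissue wells of libraries 1 to 5 as blue points, those of libraries 6 to 8 as orange points, and proprioceptor wells of the same libraries as grey crosses. In connective tissue wells *Hoxa7* sits at 109 CPM or above in libraries 1 to 5 and at 27.4 CPM or below in libraries 6 to 8, while its crosses overlap between the sets, and *Hoxa10* sits at 0.892 CPM or below and then at 57.7 CPM or above.

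Proprioceptor wells of the same libraries gave a reference for the same split, with 115 wells in libraries 1 to 5 and 78 wells in libraries 6 to 8. *Hoxc10* in these wells chose the split, so their own values are a description. In the same fit, 91 of 13304 genes passed in them (0.684%, with 0.361% higher and 0.323% lower). *Hoxa10* was higher in both classes of wells, at averages of 2.83 and 60.7 CPM in the neurons (log2 difference 4.16), and *Hoxc8* was lower in both, at 387 and 144 CPM in the neurons (log2 difference -1.43). The 2 differences of *Hoxc8* were 0.094 apart on the log2 scale (adjusted p = 0.898) and those of *Hoxa10* 2.60 apart (adjusted p = 0.184) in the edgeR test of class by set, with library as a block. Neither passed, which does not show that the classes moved alike.

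*Hoxa7* did differ between the classes. In the neurons it stood at 196, 209, 87.6, 189 and 126 CPM in libraries 1 to 5 and at 182, 177 and 144 CPM in libraries 6 to 8, ranges that overlap. The difference there was 0.033, and the connective tissue difference lay -3.02 from it on the log2 scale (edgeR test of class by set, adjusted p = 0.000456). *Hoxb7* went opposite ways, down in connective tissue and from 24.7 to 47.8 CPM in the neurons, and its class difference was -2.11 (adjusted p = 0.00512). *Hoxc9* did as well, up in connective tissue and from 143, 164, 187, 160.3 and 160.4 CPM to 71.6, 108 and 104 CPM in the neurons, where the sets did not overlap either, and its class difference was 2.16 (adjusted p = 0.00156). *Hoxb8* was the last of the 4 with a class difference, -3.37 (same edgeR test, adjusted p = 0.0354). In the neurons it stood at 6.89, 3.33, 0.701, 4.58 and 1.93 CPM and at 12.0, 5.07 and 2.62 CPM, ranges that overlap. Its connective tissue value in libraries 6 to 8 rests on 19 UMIs, and it was not called there. Hox genes with a class difference numbered 3 without library 2, 5, 6 or 8, and 5 without library 4. In all, 333 of 13566 genes tested passed this test (2.45%), and 179, 100, 138 and 105 did without library 2, 6, 7 and 8, respectively.

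**Figure D2:**
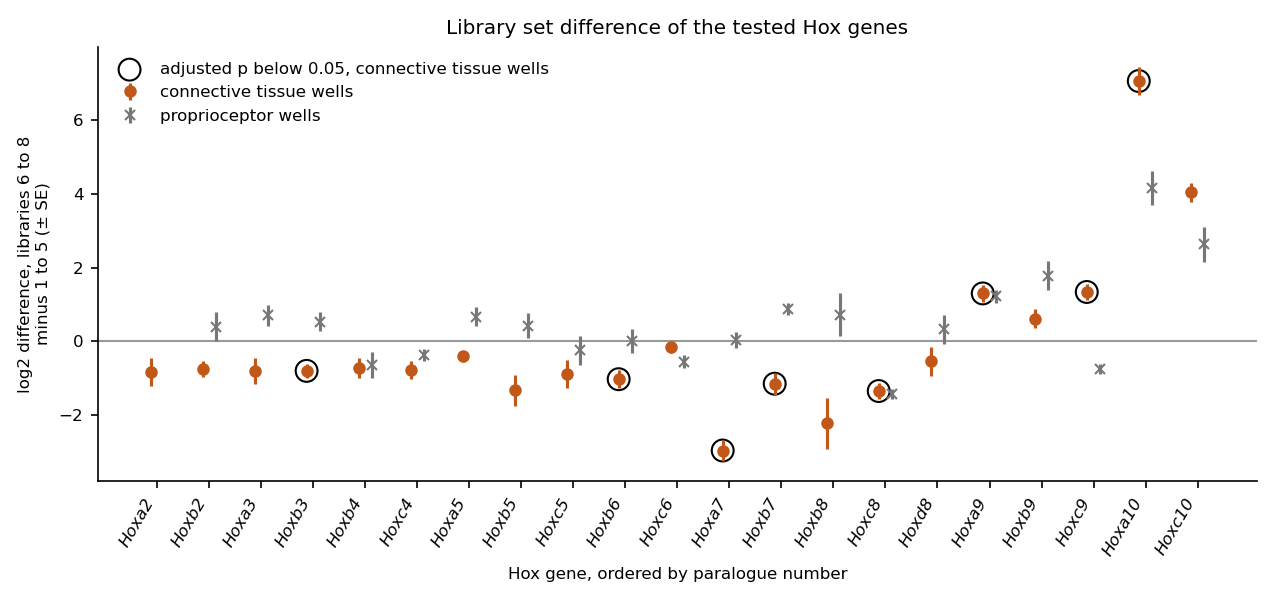
Log2 difference (libraries 6 to 8 minus libraries 1 to 5, bars ± SE from the edgeR fit) of the 21 tested Hox genes in order of paralogue number, in connective tissue wells (orange) and proprioceptor wells (grey crosses). Circles mark genes that passed in connective tissue wells, with *Hoxc10* left without a circle because it set the split, and the orange points run from -2.97 at *Hoxa7* to 7.07 at *Hoxa10*.

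Most wells of libraries 6 to 8 held a transcript of groups 10 to 13. To set aside depth, each well was thinned at random to 10000 UMIs. A UMI of any gene of groups 10 to 13 was then seen in 13.3%, 10.9%, 2.70%, 10.5% and 0% of the wells of libraries 1 to 5 (0 of 19 in library 5, with an exact 95% upper limit of 17.6%) and in 83.1%, 84.9% and 92.7% of those of libraries 6 to 8. The sets did not overlap and their means differed by 79.4 percentage points, given with no test since *Hoxc10* is among these genes. Without thinning the shares were 23.3%, 18.2%, 10.8%, 23.7% and 5.26%, and then 98.6%, 92.5% and 97.6%. For *Hoxa10* alone, at 10000 UMIs, the average was 0.364% in libraries 1 to 5 and 38.4% in libraries 6 to 8 (exact two-sided permutation test over libraries, p = 0.0357, the smallest that 3 libraries against 5 can give).

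*Hoxa7* gave the opposite picture, with a UMI in 56.7%, 76.4%, 43.2%, 57.9% and 84.2% of thinned wells in libraries 1 to 5 and in 14.1%, 26.4% and 17.1% in libraries 6 to 8 (mean difference -44.5 percentage points, exact permutation test, p = 0.0357, again the smallest possible). For *Hoxc8* the shares were 56.3% and 49.7% on average, a difference that did not pass (exact permutation test, p = 0.571). Without thinning, 118 of 179 wells of libraries 1 to 5 held *Hoxa7* and no *Hoxc10*, 5 held *Hoxc10* and no *Hoxa7*, 24 held both and 32 neither. In libraries 6 to 8 the counts were 5, 101, 56 and 3 of 165 wells. Neuronal transcripts also reached these wells, with a UMI of the neuronal genes *Nefl* and *Stmn2* in 94.8% and 95.3% of the 344 wells, at 163 and 167 CPM against 6426 and 4513 CPM in proprioceptor wells. Proprioceptors hold *Hoxa7* and *Hoxc10* as well, so a UMI of either gene in a well does not show that the cell expressed it, and the part of neuronal RNA in these counts was not tested.

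**Figure D3:**
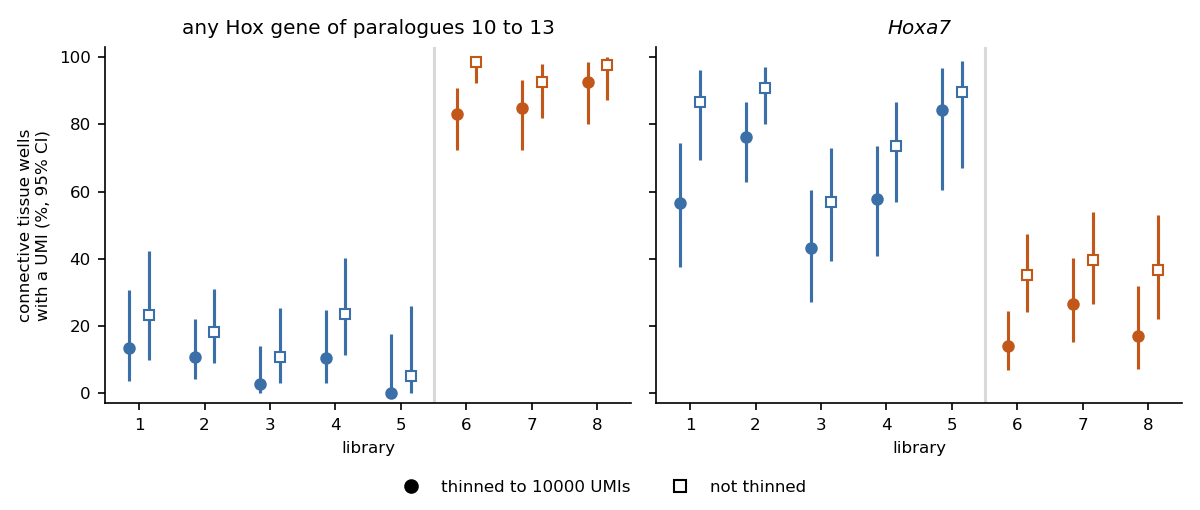
Share of connective tissue wells (%) with a UMI of any Hox gene of groups 10 to 13 (left) or of *Hoxa7* (right) in each library, thinned to 10000 UMIs per well (filled circles) or not thinned (open squares), with exact 95% binomial intervals for counting error. Libraries 6 to 8 lie above all others on the left, at 83.1% or more when thinned, and below all others on the right, at 26.4% or less when thinned.

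The makeup of the connective tissue wells was not the same in the sets, and its values are set out ahead of the other genes. Wells were counted as bone-marker wells when *Runx2*, *Sp7*, *Ibsp*, *Bglap*, *Alpl* and *Dmp1* summed to at least 500 CPM. This limit was chosen after the data were seen. *Bglap* and *Dmp1* added almost nothing to the sum, at 0.945 and 0.189 CPM over the wells of libraries 1 to 8. *Ibsp* was uneven, at 3647 CPM in library 1, 8.92 CPM in library 3 and 0 CPM in library 8. Bone-marker wells made up 76.7%, 61.8%, 21.6%, 57.9% and 78.9% of the connective tissue wells of libraries 1 to 5. In libraries 6 to 8 they made up 21.1%, 15.1% and 9.76%. Library 3 stood close to library 6, but the sets did not overlap and the means differed by -44.1 percentage points (exact permutation test, p = 0.0357, the smallest possible, and p = 0.107 at a limit of 1000 CPM). That is 102 of 179 and 27 of 165 wells. The level is a continuum, with 58 wells between 250 and 1000 CPM and 95 wells at 0. In sums over wells, as in bulk samples, fewer cells of a type and less RNA per cell cannot be told apart.

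*Tnmd*-positive wells, with at least 100 CPM of the gene of the tendon membrane protein tenomodulin, made up 0%, 12.7%, 13.5%, 10.5% and 0% of the wells in libraries 1 to 5 and 39.4%, 34.0% and 12.2% in libraries 6 to 8, where library 8 lay within the first set (exact permutation test, p = 0.107). Cycling wells, with at least 100 CPM of *Mki67* and *Top2a*, made up 40.0%, 34.5%, 10.8%, 34.2% and 36.8%, and 36.6%, 45.3% and 46.3% (exact permutation test, p = 0.107, and p = 0.0357 at a limit of 50 or 200 CPM). Connective tissue wells were 37.3% of the 96 wells of a library on average in libraries 1 to 5 and 57.3% in libraries 6 to 8. Libraries 9 and 10, also rich in *Hoxc10*, held 3.13% and 5.21% and were left out for holding so few. The share of these wells thus shaped the second set, and its difference is given with no test.

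Of the markers of other cell types, the blood list summed to 208, 35.9, 234, 22.1 and 185 CPM in libraries 1 to 5 and to 3763, 8620 and 143 CPM in libraries 6 to 8, so libraries 6 and 7 stood apart and library 8 did not. This was haemoglobin, with 4 of 5 tested blood markers called higher, while the leukocyte gene *Ptprc* stood at 0.473 CPM over all wells. The muscle list summed to 3.08, 1.58, 8.03, 8.49 and 8.15 CPM and to 17.5, 24.2 and 27.5 CPM, and of its members *Des*, encoding the filament protein desmin, was tested and called higher, while *Myf5* was at 0 and *Myod1* at 0.0945 CPM. Bone markers summed to 5021, 1201, 281, 1929 and 1408 CPM and to 318, 570 and 95.8 CPM. Cartilage markers summed to 499 to 1797 CPM in libraries 1 to 5 and to 218 to 811 CPM in libraries 6 to 8, and glial markers to 121 to 571 CPM and 110 to 406 CPM. With wells high in blood markers (blood-marker wells) left out, the 30 genes of smallest adjusted p described below kept their calls. So did 8 of the 9 called Hox genes, all but *Hoxb7*. This fit kept 69 of 71 wells of library 6 and 46 of 53 of library 7. Wells with fewer haemoglobin UMIs thus stayed in, as *Hba-a1* had a UMI in 51.5% of the 344 wells. The part of muscle, cartilage and glial RNA in the gene results was not tested.

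**Figure D4:**
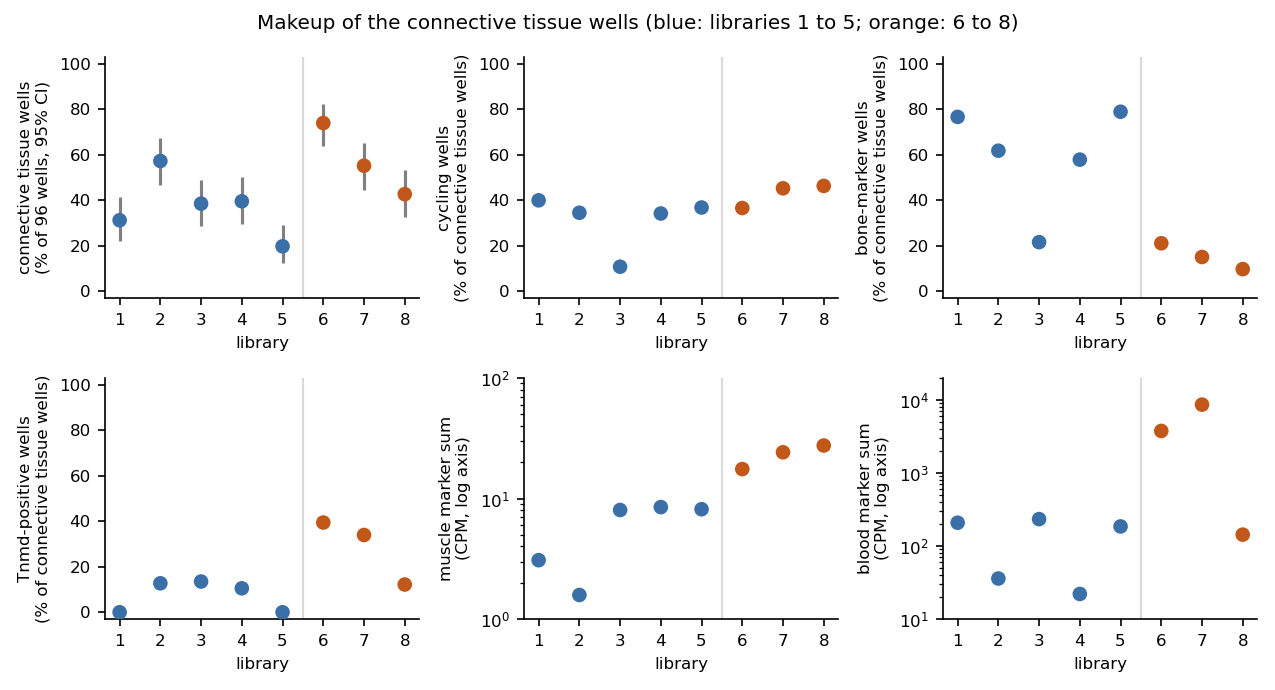
Makeup of the connective tissue wells in libraries 1 to 5 (blue) and 6 to 8 (orange): share of all 96 wells with exact 95% binomial intervals, shares of cycling, bone-marker and *Tnmd*-positive wells (%), and summed muscle and blood markers (CPM, log axes). Bone-marker wells lie between 21.6% and 78.9% in libraries 1 to 5 and at 21.1% or below in libraries 6 to 8, and blood markers are high in libraries 6 and 7 and at 143 CPM in library 8.

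*Hoxa7* and *Hoxa10* differed within each kind of well. Among bone-marker wells pooled over libraries, *Hoxa7* stood at 209 CPM in libraries 1 to 5 and 34.0 CPM in libraries 6 to 8, and *Hoxa10* at 0.296 and 72.2 CPM. Among wells without bone markers, *Hoxa7* stood at 130.5 and 22.3 CPM, and *Hoxa10* at 0.438 and 59.0 CPM. Refitted without bone-marker wells, the differences were -2.67 for *Hoxa7* (edgeR adjusted p = 0.00678) and 6.61 for *Hoxa10* (adjusted p = 0.000773), and on bone-marker wells alone they were -2.80 (adjusted p = 0.00220) and 7.13 (adjusted p = 0.000164). Libraries with under 5 wells left these fits, which was library 5 (4 wells) in the first and library 8 (4 wells) in the second, so that libraries 6 and 7, with 15 and 8 bone-marker wells, stood alone for their set there. Without library 5 and with all other wells kept, *Hoxb7* was the 1 called Hox gene that missed the threshold. *Hoxc8* kept its call without bone-marker wells (log2 difference -1.59, edgeR adjusted p = 0.0114) and missed it on bone-marker wells alone (-1.75, adjusted p = 0.265) and without *Tnmd*-positive wells (-1.05, adjusted p = 0.125).

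The other called Hox genes, *Hoxc10* aside, missed the threshold without bone-marker wells. The log2 difference of *Hoxc9* was then 0.55, down from 1.34 (edgeR adjusted p = 0.724). That of *Hoxa9* was 1.32, close to the 1.30 with all wells (adjusted p = 0.127), and that of *Hoxb3* was -0.75 against -0.81 (adjusted p = 0.151). *Hoxb6* gave -0.79 against -1.03 (adjusted p = 0.355) and *Hoxb7* -0.91 against -1.15 (adjusted p = 0.281). Apart from *Hoxc9*, these differences thus kept most of their size in the smaller fit. On bone-marker wells alone, with libraries 6 and 7 as the second set, *Hoxc9* gave 2.12 (edgeR adjusted p = 0.0884) and *Hoxa9* 1.96 (adjusted p = 0.149). There *Hoxb3*, *Hoxb6* and *Hoxb7* gave -0.36, -0.44 and -1.12 and missed the threshold as well. Pooled, *Hoxc9* stood at 23.1 and 88.7 CPM in bone-marker wells and at 47.7 and 84.0 CPM in the others. Without *Tnmd*-positive wells *Hoxb3* and *Hoxb6* missed the threshold too. A direct test of whether a Hox difference depended on bone markers, over the 4 libraries of the first set and 2 of the second with at least 5 wells of each kind, called 0 of 21 Hox genes by edgeR (2 at an unadjusted p below 0.05), where 43 of 10725 genes were called (0.401%).

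Across all genes, 336 were higher and 291 lower in libraries 6 to 8, and 1641 of 11185 had sets that did not overlap. The counts were 178 and 108 without library 6, 128 and 83 without library 7, 156 and 91 without library 8, and 237 and 193 without library 2. The 15 genes with the smallest adjusted p in each direction, Hox genes aside, were taken among those whose sets did not overlap. All 30 kept their direction and call when any 1 library was left out, which their choice by small adjusted p and no overlap favours. Of all called genes, 37.8% of the higher and 27.8% of the lower kept theirs without library 7, and 94.6% and 92.4% without library 3. Without bone-marker wells, a fit that library 5 left as well, 94 of 336 higher (28.0%) and 115 of 291 lower calls (39.5%) were kept. Of the 30, 27 kept theirs, with *Nfib* and *Pdgfrb* among those that lost the call. In bone-marker wells alone, where libraries 6 and 7 gave 15 and 8 wells and library 8 left the fit, 1 kept the call, 17 missed the threshold with the same sign, 7 had the opposite sign (*Ebf2*, *Nfib*, *Fam129a*, *Adgrl2*, *Foxc1*, *Pdgfrb* and *Tnfrsf19*), and the others could not be tested.

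Of the 15 higher genes, *Ebf2*, *Meox2*, *Gli3* and *Nfib* encode transcription factors. *Ebf2*, a factor of mesenchymal precursors, stood at 61.6, 63.9, 73.1, 62.0 and 91.7 CPM in libraries 1 to 5 and 269, 324 and 408 CPM in libraries 6 to 8, a difference of 2.19 ± 0.17 (edgeR adjusted p = 0.000129). *Meox2*, a homeobox factor of somite derivatives, stood at 78.0, 95.1, 62.4, 64.5 and 71.3 CPM and 249.8, 259 and 192 CPM (log2 difference 1.58 ± 0.16, edgeR adjusted p = 0.000551). *Gli3*, a mediator of Hedgehog signalling that acts largely as a repressor, rose from an average of 67.7 ± 12.0 CPM to 189 ± 16.8 CPM (SD, n = 5 and 3), and *Nfib*, a nuclear factor I protein, from 820.3 ± 79.8 CPM to 1972 ± 167 CPM. The sets were apart for all 4. In wells without bone markers *Ebf2* stood at 131 and 389.6 CPM and *Meox2* at 83.2 and 281 CPM, whereas in bone-marker wells *Ebf2* stood at 24.0 and 15.5 CPM and *Meox2* at 73.2 and 75.3 CPM.

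*Chodl*, encoding the membrane lectin chondrolectin, had the largest difference of the 15 higher genes. It stood at 20.5, 12.1, 13.4, 5.09 and 16.3 CPM in libraries 1 to 5 and at 299.9, 216 and 134 CPM in libraries 6 to 8, a difference of 3.99 ± 0.32 (edgeR adjusted p = 0.000129). In wells without bone markers it stood at 30.7 and 295 CPM, and in bone-marker wells at 0.593 and 5.15 CPM. *Il17rd*, an inhibitor of FGF signalling, rose from 8.19 ± 3.04 to 58.4 ± 11.1 CPM, and *Amot*, the Hippo pathway scaffold angiomotin, from 61.1 ± 19.3 to 315 ± 51.6 CPM (SD, n = 5 and 3). The adhesion receptor *Adgrl2* and the glycosyltransferase *Galnt16* rose by 1.92 and 1.86 on the log2 scale. *Fam129a*, *Nhsl2*, *Tril*, *Asb4*, *6330403K07Rik* and *Ncoa7* made up the rest, with log2 differences between 1.30 and 2.50.

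Matrix and receptor genes were among those that were lower. *Lum*, the collagen-binding proteoglycan lumican, stood at 726, 596, 346, 559 and 501 CPM in libraries 1 to 5 and at 99.7, 180.3 and 169 CPM in libraries 6 to 8, with no overlap and a difference of -1.94 ± 0.26 (edgeR adjusted p = 0.00202). *Sparc*, a matrix protein abundant in bone, fell from 7101 ± 609 to 3325 ± 390.1 CPM (SD, n = 5 and 3). *Lum* was lower in both kinds of well, at 729 and 188 CPM in bone-marker wells and at 294 and 128 CPM in the others. *Sparc* stood at 7558 and 6464 CPM in bone-marker wells and at 6427 and 2666 CPM in the others.

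*Foxc1*, a forkhead factor of meninges and somites, stood at 149.9, 223, 246, 227 and 218 CPM and at 89.8, 75.8 and 56.9 CPM, with no overlap and a difference of -1.58 ± 0.21 (edgeR adjusted p = 0.00202). This lay in the wells without bone markers, at 204 and 25.0 CPM, while bone-marker wells held 223 and 296 CPM. The test of that dependence passed for *Foxc1* (difference between kinds of well -3.47 on the log2 scale, edgeR adjusted p = 0.0128), *Sparc* (adjusted p = 0.0369) and *Zeb2* (adjusted p = 0.0411), and for no other of the 30 genes. Of the other genes named for the lists below, it passed for *Ptch1* (-2.12, edgeR adjusted p = 0.0191), *Scx* (3.65, adjusted p = 0.0224) and *Stra6* (-6.74, adjusted p = 0.0447). The sphingosine phosphate receptor *S1pr1*, the TNF receptor family member *Tnfrsf19* and the semaphorin receptor *Plxna2* were lower too, with differences of -2.11, -2.40 and -1.89. In wells without bone markers they stood at 25.0 and 1.77, 68.7 and 3.54, and 84.9 and 12.7 CPM, and in bone-marker wells at 63.1 and 50.5, 47.4 and 40.2, and 69.1 and 51.5 CPM. The inducible heat shock gene *Hspa1a*, a chaperone of the stress response, fell from 498 ± 207 to 50.9 ± 19.9 CPM (SD, n = 5 and 3).

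*B3gnt9*, *Sspn*, *Pdgfrb*, *Myof*, *Tpm1* and *Zeb2* were lower as well, with log2 differences between -2.27 and -1.04. *Pdgfrb*, the platelet-derived growth factor receptor of mesenchymal and mural cells, stood at 118, 111, 109, 96.8 and 114 CPM and 57.3, 59.5 and 50.3 CPM, so the sets were apart, but in bone-marker wells the pooled levels were 132 and 136 CPM.

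**Figure D5:**
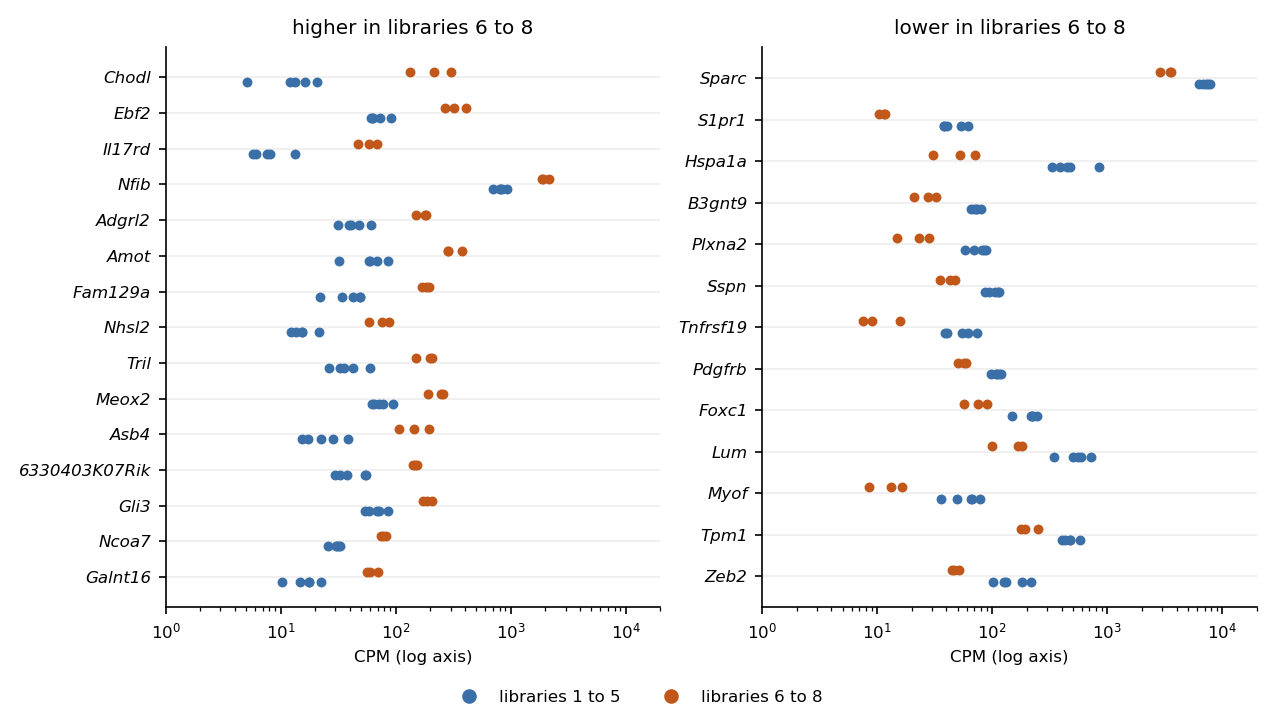
Level (CPM, log axis) in the connective tissue wells of each library for the named genes of smallest adjusted p, 15 that were higher (left) and 13 that were lower (right) in libraries 6 to 8, ordered from the smallest adjusted p at the top. Blue points are libraries 1 to 5 and orange points libraries 6 to 8, and in every row the colours do not overlap, since only such genes were taken.

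Gene lists of pathways and tissues were read by their counts of called genes, beside the 5.61% of all genes, and by their median differences, beside -0.02 over all genes. In bone-marker wells alone, with libraries 6 and 7 as the whole second set, *Cyp26b1* was the 1 gene named for these lists that kept its call, and several could not be tested. In the tendon list 5 of 13 tested genes were called, with a median of 0.018. The transcription factor *Scx* and the matrix protein *Thbs4* were higher, at averages of 25.3 and 173 CPM and 17.2 and 257 CPM, as were *Tnmd* and *Col14a1*, and *Col12a1* was lower at 836 and 483 CPM. *Tnmd* itself defines the *Tnmd*-positive wells, whose share did not pass between the sets (exact permutation test, p = 0.107). Without those wells the difference of *Scx* turned from 2.68 to -0.57 (edgeR adjusted p = 0.477), while *Thbs4* kept its call at 2.38 (adjusted p = 0.0124). Without bone-marker wells *Col12a1* and *Col14a1* lost the call.

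In the list of meninges and nerve sheath 3 of 12 genes were called, all lower, with a median of -1.08. These were *Foxc1*, *Zic4* at 96.7 and 36.8 CPM and *Foxd1* at 70.6 and 35.9 CPM, and all 3 kept their call without bone-marker wells. *Foxd1* lost it without *Tnmd*-positive wells, and on bone-marker wells alone *Foxc1* and *Foxd1* had the opposite sign. Among sclerotome and somite factors, 4 of 10 were called, with a median of 0.18. *Meox2*, *Meox1* at 15.7 and 128 CPM and *Pax1* at 40.6 and 88.0 CPM were higher and *Foxc1* was lower. *Meox1* lost its call without bone-marker wells, and *Pax1* lost it without *Tnmd*-positive wells and without blood-marker wells and had the opposite sign in bone-marker wells alone. Of the 16 tested genes in the list of limb and lateral plate factors, 4 were higher, *Tcf4* among them, and 4 lower, with a median of 0.21. *Tbx15*, a T-box factor of trunk and limb mesenchyme, stood at 9.24, 2.11, 16.9, 0.849 and 4.08 CPM in libraries 1 to 5 and at 88.1, 71.9 and 89.2 CPM in libraries 6 to 8, with no overlap and an edgeR adjusted p of 0.00207, and the bone-associated homeobox genes *Dlx5* and *Dlx6* were lower at 44.1 and 9.42 CPM and 12.3 and 0.788 CPM. *Dlx5* and *Dlx6* could not be tested without bone-marker wells, and *Dlx5* lost its call without *Tnmd*-positive wells. Pooled, *Dlx5* stood at 66.1 and 52.6 CPM in bone-marker wells and at 11.4 and 0.759 CPM in the others. *Dlx6* stood at 18.97 and 5.15 CPM in bone-marker wells and at 0.438 and 0 CPM in the others. In the caudal list 3 genes were tested and 0 called by edgeR, with 2 at an unadjusted p below 0.05 and 1 called by DESeq2.

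The FGF list had 7 of 12 tested genes called and a median of 0.80. The receptors *Fgfr2* and *Fgfr3*, which are strong in bone and cartilage, were lower at 296 and 81.3 CPM and 44.7 and 7.80 CPM, whereas the ETS factor *Etv4* and the feedback inhibitor *Spry4*, both induced by FGF signalling, were higher at 2.97 and 20.9 CPM and 32.7 and 91.4 CPM. Without bone-marker wells 3 of these 4 kept the call, all but *Spry4*. In the Hedgehog list 5 of 9 were called, with a median of 0.28. *Gli3* and the co-receptors *Boc* and *Cdon* were higher, the latter at 23.4 and 105 CPM, and the receptor *Ptch1* and the ligand-binding inhibitor *Hhip*, both targets of the pathway, were lower at 172 and 77.6 CPM and 152 and 43.1 CPM. *Boc* lost its call without bone-marker wells and *Ptch1* without *Tnmd*-positive wells (log2 difference -0.87, edgeR adjusted p = 0.155). The signs of *Ptch1* and *Boc* were opposite in bone-marker wells alone, at 0.41 and -0.031.

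In the list of 24 tested guidance genes 3 were higher and 3 lower (median -0.26), and of the 4 named here the 3 that could be tested without bone-marker wells kept their call. The ephrin receptors *Epha3* and *Epha4* were higher, at 142 and 416 CPM and 89.0 and 208 CPM, and the secreted semaphorins *Sema3d* and *Sema3e* were lower, at 34.0 and 5.27 CPM and 11.5 and 2.05 CPM. In the Wnt list 4 of 20 were called (median -0.58), with *Wnt5a* and *Dkk3* lower and the secreted inhibitors *Sfrp1* and *Sfrp2* higher, the last at 29.9 and 190.3 CPM. Without bone-marker wells *Dkk3* was the 1 of these 4 that kept its call. In the retinoic acid list 4 of 12 were called (median -0.39). The synthesis enzyme *Aldh1a3* was higher at 12.5 and 65.4 CPM and the degrading enzyme *Cyp26b1* lower at 41.2 and 11.5 CPM, with *Crabp1* higher and *Stra6* lower. *Cyp26b1* lost its call without bone-marker wells, *Stra6* without *Tnmd*-positive wells and *Crabp1* without blood-marker wells. *Stra6* stood at 37.2 and 1.01 CPM in wells without bone markers and at 8.30 and 10.3 CPM in bone-marker wells.

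The imprinted gene *Dlk1*, an inhibitor of mesenchymal differentiation, rose from 1053 ± 529 to 5397 ± 1043 CPM (SD, n = 5 and 3, edgeR adjusted p = 0.00222), 1 of 6 called among 15 IGF and imprinted genes (median 0.31), and the 4 of these named by the rule, *Dlk1*, *Plagl1*, *Meg3* and *H19*, lost the call without bone-marker wells, where *Dlk1* gave 1.26 (adjusted p = 0.0649), and *H19* lost it without *Tnmd*-positive wells as well. In the BMP and TGF-beta list 3 of 19 were called (median -0.42), *Tgfb2* higher and *Tgfb1* and the BMP antagonist *Nog* lower. Without bone-marker wells *Tgfb2* lost its call and the other 2 could not be tested, and without *Tnmd*-positive wells *Tgfb1* and *Tgfb2* lost theirs. Among 23 collagens tested, 4 were higher and 6 lower (median -0.046), among them *Col8a2* at 419 and 202 CPM and *Col11a1* at 982 and 567.5 CPM, both lower. *Col11a1* lost its call without bone-marker wells and *Col8a2* without *Tnmd*-positive wells. Of 12 immediate early and stress genes 3 were lower (median -0.58), *Hspa1a*, *Hspa1b* and *Jun*, the last of which lost its call without bone-marker wells and without *Tnmd*-positive wells. Of 20 cell cycle genes 0 passed in edgeR (median 0.19), with 2 at an unadjusted p below 0.05 and 0 called by DESeq2.

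Among the marker lists, 8 of 18 tested connective tissue markers were called, 2 higher and 6 lower. *Fn1*, encoding fibronectin, rose from 624 ± 198 to 1685 ± 206 CPM, and the small proteoglycan gene *Bgn* fell from 1226 ± 215 to 677 ± 162 CPM (SD, n = 5 and 3). *Runx2*, the master factor of bone formation, was the 1 of 4 tested bone markers to pass, at 279 and 76.6 CPM, and *Acan*, the cartilage proteoglycan aggrecan, the 1 of 5 cartilage markers, at 159 and 50.2 CPM. *Runx3*, which marks proprioceptors and is also used in skeletal tissue, was lower at 38.6 and 11.5 CPM, the 1 of 4 proprioceptor markers to pass. Of 6 sensory neuron, 6 glial and 2 endothelial markers tested, 0 passed in edgeR or in DESeq2, with 0, 0 and 2 at an unadjusted p below 0.05, and *Rgs5*, of pericytes, was called lower although its sets overlapped.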

How the data were processed

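Single tdTomato-positive cells of 10 e15.5 libraries, 96 wells each, were read by CEL-Seq2. The authors deposited UMI counts per gene and well, not normalized, built on mm10/GRCm38 per the submitters' processing notes, and the study names the R package scruff for demultiplexing, alignment and counting. The count table held 49671 genes, 49412 with a symbol, and 0.0412% of UMIs fell on genes without one. Libraries held 3701900 to 9299431 UMIs, and intervals and floors cover counting error only.

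From these counts, UMIs of the connective tissue wells were summed per library and tested with edgeR 4.0.16 (quasi-likelihood, filterByExpr, TMM) in R 4.3.3, over libraries 1 to 8 with at least 5 wells each, at a Benjamini-Hochberg adjusted p of 0.05. CPM scale the summed wells of a library to 1000000 UMIs. Proprioceptor wells and the class by set term (library as block) were fitted the same way, and the dependence on bone markers was added after seeing the data. DESeq2 1.42.0 served as an alternative. Shares and exact permutation tests used SciPy 1.17.1. Promoters came from the RefSeq table (GRCm38.p6). No library pair agreed within sampling noise (smallest chi-square per degree of freedom 3.16).

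Genes were named by rule: every tested Hox gene, the 15 of smallest adjusted p in each direction among protein-coding genes whose sets did not overlap, up to 4 called genes per list, and the markers. The edgeR fit was tested on simulated libraries over 11185 genes, where it recovered 85% of 4-fold and 34% of 2-fold changes, with 7.75% of 129 calls false. The members, lists and rules were chosen with earlier results of these data known. Postnatal libraries were not used here, and 2 genes that the rule names are not reported here.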

Additional observations from a re-analysis of the deposited data

Results flagged for a closer look

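Library 1 lay apart from libraries 2 to 5 for *Hoxb9*, at 56.5 CPM in connective tissue wells. It was the 1 such case in libraries 1 to 5 over 21 Hox genes, and chance alone sets about 1 in 20 groups apart.

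The difference between the library sets was not the same in connective tissue and proprioceptor wells for 4 Hox genes. By the edgeR test of class by set, the connective tissue difference lay -3.02 from that of the neurons for *Hoxa7*, -2.11 for *Hoxb7*, -3.37 for *Hoxb8* and 2.16 for *Hoxc9*, all on the log2 scale.

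Libraries 9 and 10 entered no comparison, and their few connective tissue wells also held Hox genes of groups 10 to 13. Over the 3 wells of library 9, *Hoxc10* stood at 107 CPM (5 UMIs). Over the 5 wells of library 10, *Hoxa10* stood at 67.0 CPM (8 UMIs), *Hoxc10* at 151 CPM (18 UMIs) and *Hoxd10* at 58.6 CPM (7 UMIs). *Hoxc11* at 41.8 CPM (5 UMIs) and *Hoxc13* at 50.2 CPM (6 UMIs) came from 1 well each.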

How the results depend on the processing

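No paired analysis was possible because the labels do not say which libraries, if any, came from the same embryos or litters. Depth limits the sparse Hox genes: 12 of 39 had UMIs but were not tested, and of the 2-fold changes in simulated libraries 34% were called.

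With no filter on low counts, 703 genes were higher and 735 lower, with 7 and 8 Hox genes, and 817 genes and 9 Hox genes differed between classes. DESeq2 called 429 and 381 genes, and library totals without TMM 438 and 255, both within 1.5 times of the counts above. Leaving out 1 library at a time gave 128 to 437 higher and 83 to 380 lower genes, 2 to 5 lower Hox genes, 100 to 448 genes that differed between classes, a difference of 76.5 to 81.3 percentage points in wells with a Hox gene of groups 10 to 13, and of -53.5 to -39.2 points in bone-marker wells. With 7 libraries the exact test cannot reach 0.05 for the shares.

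Lower Hox genes numbered 3 at 20000 UMIs or more and with the cycling share as covariate, and 1 with *Avil* and *Isl1* under 20 CPM, where library 5 left the fit. In wells neither cycling nor *Tnmd*-positive, 219 genes were higher and 117 lower, with 2 lower Hox genes. The difference in cycling wells was 15.9 points at a limit of 50 CPM and 8.84 points at 200 CPM, both past the threshold (exact p = 0.0357). Restricting to wells with no UMI of 4 proprioceptor genes could not be run, since only libraries 6 and 7 kept 5 wells.

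Chosen after seeing the data: wells with no *Pvalb* UMI gave 192 higher and 132 lower genes and 3 lower Hox genes, no *Tnmd*-positive wells 148 lower genes and 3 lower Hox genes, no bone-marker wells 128 higher genes with 2 higher and 2 lower Hox genes, and bone-marker wells alone 5 higher and 3 lower genes, with 2 higher and 1 lower Hox gene, where library 5 left the former fit and library 8 the latter. *Hoxc10*, which chose the split, is among the higher Hox genes of both bone-marker fits. At 1000 CPM of bone markers the share differed by -33.8 points (exact p = 0.107).

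Opposite signs, on the log2 scale, were *Hoxc6* at 0.046 and *Scx* at -0.61 in wells neither cycling nor *Tnmd*-positive, and *Hoxc6* at 0.00366 and *Scx* at -0.57 without *Tnmd*-positive wells. In bone-marker wells alone they were *Nfib* -0.14, *Meg3* -0.081, *Ptch1* 0.41, *Ebf2* -0.61, *Boc* -0.031, *Spry4* -0.018, *Pdgfrb* 0.050, *Fam129a* -0.071, *Adgrl2* -0.41, *Sfrp1* -0.36, *Scx* -0.27, *Pax1* -0.92, *Hoxa5* 0.022, *Tgfb2* -0.52, *Col16a1* 0.025, *Foxc1* 0.30, *Tcf4* -0.17, *Col8a2* 0.25, *Tnfrsf19* 0.038 and *Foxd1* 0.40. The cause was not tested in either case.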
